A study of Homo sapiens with 6 samples.

Results

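The STAT and JAK family genes described here were 9 genes, STAT2, STAT3, STAT4, STAT5A, STAT5B, STAT6, JAK1, JAK2 and TYK2, chosen by family membership out of 28181 genes in the normalized count files. All 9 were found by gene symbol, and all 9 passed the filter on low values, a mean normalized count of at least 1, which 23040 genes passed. Other members of the 2 families were not analysed here. The cells were UE7T-9, mesenchymal stem cells from human bone marrow that carry hTERT and the E7 gene of human papillomavirus as immortalizing genes. Libraries were made from 3 samples of UE7T-9 SHC4, infected with a lentivirus that drives SHC4 from a CMV promoter, and from 3 samples of UE7T-9 Cont, named the SHC4 libraries and the Cont libraries in the text that follows. The study's methods give the controls a GFP vector of the same design and puromycin selection for both, whereas the labels call the controls nontarget and wild type. The labels number the samples of each group as biological replicates 1 to 3, while the series' design text speaks of SHC4 clones, so whether they were separate clones, infections or cultures is not settled. The p-values therefore measure only the spread between these samples.

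SHC4 encodes an adaptor protein of the Shc family, which couples activated tyrosine kinase receptors to downstream signalling. The study named STAT5A from a gene set of cell migration. It put forward as a hypothesis that SHC4 overexpression raises STAT5A and may in this way lead to migration of the cells. JAK kinases are bound to the inner part of cytokine receptors and become active when a ligand brings receptor chains together. They phosphorylate STAT proteins on a tyrosine, and the STAT proteins then pair, enter the nucleus and switch on genes such as SOCS inhibitors that damp the signal. STAT2 works with interferon receptors, STAT3 with the IL-6 family, STAT4 with IL-12, STAT5A and STAT5B with growth hormone, prolactin and many interleukins, and STAT6 with IL-4 and IL-13. JAK1 and TYK2 serve interferon and IL-6 family receptors, and JAK2 serves growth hormone, erythropoietin and leptin receptors. The files hold transcript levels, so neither phosphorylation nor protein was measured.

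STAT5A and STAT5B are a pair of neighbouring genes with closely similar coding sequences, which bears on how a read can be assigned to one of them. In the transcripts STAT5A-201 and STAT5B-201, 2087 of 2345 aligned coding bases were identical (89.0%), and the longest identical run was 429 bases. The largest exon inside that run is shown first, because a read lying within it cannot be assigned to either gene. It is exon 9 of STAT5A-201 (GRCh38, chr17:42300715-42300870, plus strand) and exon 8 of STAT5B-201 (chr17:42218723-42218878, minus strand), 156 coding bases written 5′ to 3′ and equal in both.
STAT5A and STAT5B: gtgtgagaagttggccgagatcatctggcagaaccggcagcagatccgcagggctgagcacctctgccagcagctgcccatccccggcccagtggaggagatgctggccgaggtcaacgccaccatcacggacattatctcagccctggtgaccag
The second pair is the coding stretch of 100 bases within single exons at which the genes differed most, with 29 differing bases in capitals. It lies in exon 17 of STAT5A-201 (chr17:42308178-42308277, plus strand) and exon 16 of STAT5B-201 (chr17:42207629-42207728, minus strand).
STAT5A: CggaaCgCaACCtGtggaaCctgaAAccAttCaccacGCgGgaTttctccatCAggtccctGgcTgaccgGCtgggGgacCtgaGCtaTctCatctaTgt
STAT5B: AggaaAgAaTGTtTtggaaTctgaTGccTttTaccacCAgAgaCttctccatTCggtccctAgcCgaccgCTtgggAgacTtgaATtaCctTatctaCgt
Of the 5889 distinct stretches of 50 bases in STAT5A transcripts, 507 (8.61%) also occurred in another gene, and that gene was STAT5B for all 507. For STAT5B, 584 of 6491 stretches also occurred in another gene, 507 of them in STAT5A. The other 7 genes shared between 0% and 1.37% of their 50-base stretches with any gene and none with another of the 9. A single gene count for STAT5A or STAT5B is therefore uncertain by the reads that fall in the shared part, while most of each transcript is distinct.

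The 250 bases before the most upstream RefSeq start of STAT5A are shown next, since STAT5A was the gene of the 9 with the largest log2 fold change. They lie at chr17:42287189-42287438 (GRCh38.p14, plus strand), and the capitals mark a match to TTCNNNNGAA, the wider-spaced palindrome of the STAT motifs.
STAT5A upstream: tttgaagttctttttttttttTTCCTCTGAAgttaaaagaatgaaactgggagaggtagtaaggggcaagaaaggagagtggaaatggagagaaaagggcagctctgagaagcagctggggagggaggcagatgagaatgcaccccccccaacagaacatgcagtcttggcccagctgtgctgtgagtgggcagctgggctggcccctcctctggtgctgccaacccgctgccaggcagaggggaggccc
The match starts 229 bases before the start site. Among 35116 RefSeq promoters of this length, searched on both strands, 5.38% held TTCNNNNGAA and 6.57% held the shorter-spaced TTCNNNGAA. The interferon-type element GAAANNGAAA was in 3.02%. Of the 9 genes, each counted over all its RefSeq starts, STAT5A alone held TTCNNNNGAA and none held the other motifs. A match of letters is a description of these windows and not a binding site. The window shown held 1 CpG, against a median of 11 over all promoters, whereas the window before a later STAT5A start held 29 and that of STAT5B held 47. Gene counts do not separate the starts, so which STAT5A start was used was not tested.

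Sequencing depth ranged from 18144993 to 27721397 recovered reads per library. The normalized count, the read count divided by the size factor of its library, is used as the level throughout. The mean level of SHC4 was 114 ± 51.8 in the Cont libraries and 136347 ± 17966 in the SHC4 libraries (SD, n = 3 each). Among markers of other cell types, the leukocyte marker PTPRC was between 0 and 6.82 and the epithelial marker EPCAM between 0 and 4.92, where 3 reads correspond to a value of 2.50 to 3.53. Of the leukocyte list, HLA-DRA had the highest level, with 262, 89.5 and 72.8 in the Cont libraries and 151, 189 and 161 in the SHC4 libraries (adjusted p = 0.645 from limma, and higher at 0.0259 without Cont replicate 1), and CD14 ranged from 52.7 to 88.3. Of the endothelial markers tested, PECAM1 ranged from 7.80 to 38.4, VWF from 34.4 to 65.3, KDR from 28.3 to 74.2 and TEK from 0.832 to 10.8. Their limma log2 fold change was above 0 for PECAM1 (1.12) and below 0 for the other 3, and none passed. The summed normalized count of the 7 tested of 9 listed leukocyte markers was 229 to 421 in the Cont libraries and 279 to 350 in the SHC4 libraries, that of the 5 listed endothelial markers (4 of them tested) 130 to 153 and 89.6 to 148, and that of 4 tested epithelial markers 41.2 to 67.3 and 14.2 to 54.5. All 12 listed mesenchymal stem cell markers were detected, and 11 of them had a log2 fold change above 0. Their summed normalized count was 692289, 312562 and 248319 in Cont replicates 1, 2 and 3 and 642829, 447096 and 456943 in SHC4 replicates 1, 2 and 3. Cont replicate 1 thus had the highest sum of the 6 libraries and the other controls the lowest. COL1A1 (315042) and COL1A2 (238109) made up most of that sum, and NT5E and ALCAM were lower there than in the other controls. The mean log2 level of the 12 markers was 14.05, 13.37 and 13.04 in the Cont libraries and 14.21, 13.98 and 14.09 in the SHC4 libraries. Values without Cont replicate 1 are given for the 9 genes, and for named pathway genes whose direction or call then changed. Cont replicate 1 was singled out from these same data, so values without it are a description. In bulk RNA, fewer cells of a type and less RNA per cell cannot be told apart.

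None of the 9 genes was called in the SHC4 libraries by limma, where a call needed an adjusted p below 0.05 and a change of more than 1 in either direction on the scale log2(normalized count + 1). Over all genes, 12 of 23040 (0.0521%) were called higher and 2 (0.00868%) lower. At an unadjusted p below 0.05, STAT5A and STAT6 passed in limma, in DESeq2 and in the edgeR quasi-likelihood test, both higher, against 7.47% of all genes higher in limma. At an adjusted p below 0.05, DESeq2 on the recovered reads passed 1 of the 9, STAT5A, where 2.06% of the genes tested were higher and 2.08% lower. edgeR passed none of the 9, where 0.0631% of genes were higher. STAT5A and STAT6 were also the genes of the 9 whose groups did not overlap, both higher, where 9.13% of all genes were higher without overlap and 10.2% lower without overlap. Of the 9 genes, 8 had a log2 fold change above 0, against 49.7% of all genes tested, and their median was 0.15 against 0.00 over all genes. With scaling by library size, which moved the median of all genes to -0.10, 6 of the 9 were above 0, and STAT3 and TYK2 turned below 0.

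**Figure D1:**
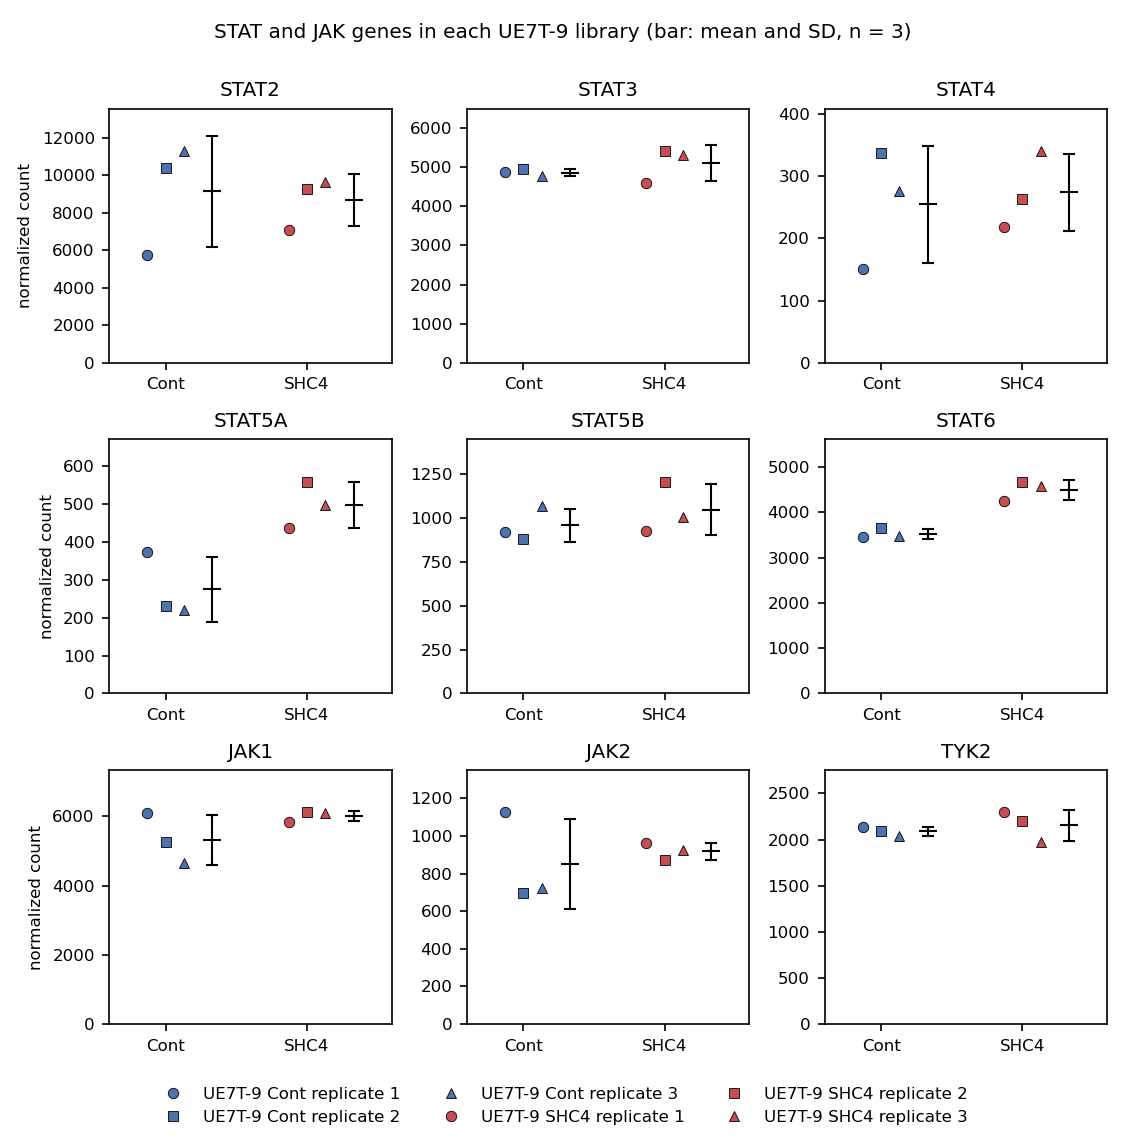
Normalized count (linear axis from 0, 1 scale per gene) of the 9 STAT and JAK genes in the 3 UE7T-9 Cont libraries (blue) and 3 SHC4 libraries (red), with the mean and SD of each group (n = 3) as a bar. STAT5A and STAT6 are the genes with all red points above all blue points, and Cont replicate 1 (blue circle) lies apart from the other controls for STAT2, STAT4, STAT5A and JAK2.

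STAT5A, one of the pair of STAT5 factors, had normalized counts of 374, 231 and 221 in Cont replicates 1, 2 and 3. In SHC4 replicates 1, 2 and 3 it had 438, 559 and 497. The lowest SHC4 library was above the highest control, which was replicate 1, and the other controls were close to each other. The means were 275 ± 85.7 and 498 ± 60.4 (SD, n = 3 each), a limma log2 fold change of 0.89 ± 0.21 (SE, adjusted p = 0.162) with a 95% interval from 0.40 to 1.37, or 1.85-fold. DESeq2 gave 0.85 (adjusted p = 0.0257) and edgeR 0.86 (adjusted p = 0.164). Among all genes, 7.21% had a higher limma log2 fold change than STAT5A and 1.45% a smaller p. Without Cont replicate 1, STAT5A rose by 1.13 on the log2 scale (standard error 0.16, adjusted p = 0.00571 from limma) and was called, as were 1.59% of the genes tested in the higher direction. With any other library left out, limma gave 0.75 to 0.98 and did not call it, and DESeq2 kept an adjusted p below 0.05 without SHC4 replicate 1 (0.0288) and not without Cont replicate 2 (0.221), Cont replicate 3 (0.198), SHC4 replicate 2 (0.365) or SHC4 replicate 3 (0.169). Cont replicate 1 was also the control with the highest sum of mesenchymal stem cell markers, and the part of that difference in STAT5A was not tested.

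STAT5B, the other STAT5 factor, had normalized counts of 921, 882 and 1065 in the Cont libraries and 926, 1205 and 1006 in SHC4 replicates 1, 2 and 3. The groups overlapped. The log2 fold change from limma was 0.13 (standard error 0.14, adjusted p = 0.731), with a 95% interval from -0.19 to 0.44. Leaving out Cont replicate 1 gave 0.10 (adjusted p = 0.755 from limma). Since levels of both genes come from the same library, their ratio does not depend on how libraries were scaled. The STAT5A to STAT5B ratio of normalized counts was 0.406, 0.262 and 0.208 in the Cont libraries and 0.472, 0.463 and 0.494 in the SHC4 libraries. All ratios of UE7T-9 SHC4 lay above all controls, and they were closer to each other (0.477 ± 0.0158, SD, n = 3) than those of the controls (0.292 ± 0.103, SD, n = 3). The ratio was 1.70-fold higher on average (two-sided exact permutation p = 0.1, which is the lowest value possible with 3 libraries in each group), and the difference in log2 ratio ran from 0.55 to 1.03 when single libraries were dropped. As a share of all STAT5A and STAT5B reads, STAT5A made up 28.9% in Cont replicate 1 (384 reads of STAT5A and 945 of STAT5B, 95% Wilson interval 26.5% to 31.4%), 20.7% in replicate 2 (18.3% to 23.4%) and 17.2% in replicate 3 (15.3% to 19.3%). In UE7T-9 SHC4 the share was 32.1% (29.8% to 34.5%), 31.7% (29.7% to 33.7%) and 33.1% (30.6% to 35.7%). These intervals cover counting error only. The share of Cont replicate 1 was below that of each SHC4 library, with intervals that overlapped, and single libraries were not tested against each other. Both other controls lay below Cont replicate 1 by more than their intervals.

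STAT6, the factor of IL-4 and IL-13 signalling, had normalized counts of 3450, 3646 and 3479 in the Cont libraries. In UE7T-9 SHC4 it had 4247, 4675 and 4575. The controls lay within 1.06-fold of each other and all SHC4 libraries were above them, so that here Cont replicate 1 did not stand apart. The means were 3525 ± 106 and 4499 ± 224 (SD, n = 3 each). The log2 fold change was 0.35 ± 0.12 (standard error), or 1.28-fold. Its adjusted p was 0.238 in limma, 0.0862 in DESeq2 and 0.192 in edgeR, so the difference did not pass after adjustment over all genes. Without Cont replicate 1 it was 0.34 (adjusted p = 0.154 from limma). Exons of STAT6 overlap those of NAB2 by 69 bases and those of LRP1 by 59 bases on the opposite strand, and LRP1 had a mean normalized count of 39180. The library kit does not mark strand, so reads in the overlap cannot be told apart, and their part in the STAT6 level was not tested.

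STAT3, the factor of the IL-6 family, had normalized counts of 4862, 4946 and 4761 in the Cont libraries and 4586, 5408 and 5319 in the SHC4 libraries. The controls were within 1.04-fold of each other and the SHC4 libraries lay on both sides of them. The log2 fold change from limma was 0.07 (standard error 0.13, adjusted p = 0.847), with a 95% interval from -0.22 to 0.35. Leaving out Cont replicate 1 also gave 0.07 (adjusted p = 0.815 from limma). The STAT6 to STAT3 ratio was 0.710, 0.737 and 0.731 in the Cont libraries and 0.926, 0.865 and 0.860 in the SHC4 libraries, so that the groups did not overlap (1.22-fold, exact permutation p = 0.1). The STAT5A to STAT3 ratio was likewise higher in every SHC4 library, at 0.0974 ± 0.00519 against 0.0567 ± 0.0176 (SD, n = 3 each, exact permutation p = 0.1). The STAT5A to STAT6 ratio overlapped between groups, at 0.109, 0.0633 and 0.0636 in the Cont libraries and 0.103, 0.119 and 0.109 in the SHC4 libraries (exact permutation p = 0.2), with Cont replicate 1 inside the range of UE7T-9 SHC4. In all, 7 such ratios were compared, and after Benjamini-Hochberg adjustment none can pass 0.05 in this design.

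**Figure D2:**
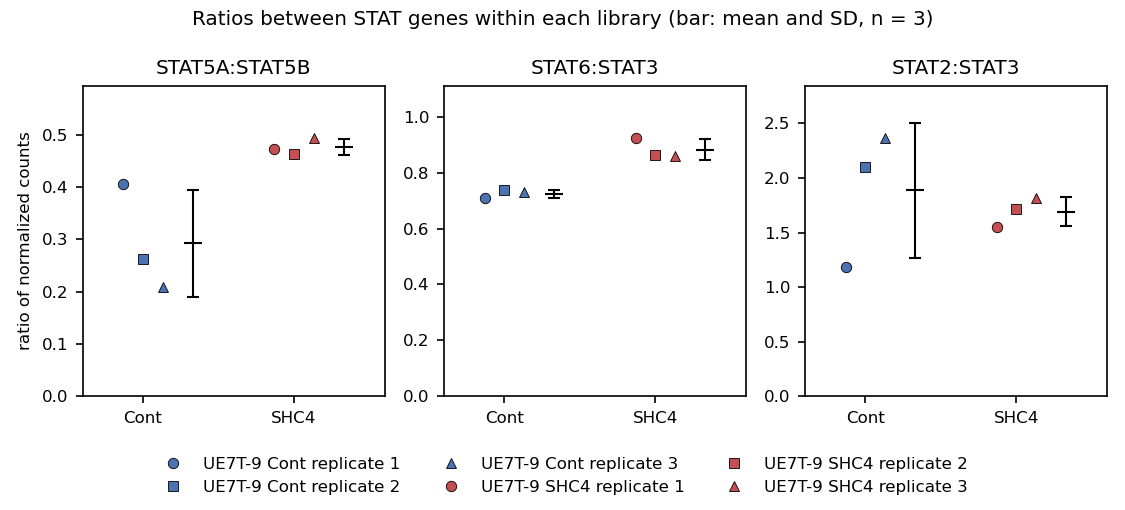
Ratio of normalized counts (axes from 0, no unit) of STAT5A to STAT5B, STAT6 to STAT3 and STAT2 to STAT3 in each library, with the mean and SD of each group (n = 3) as a bar. The first 2 ratios lie higher in every SHC4 library than in every control, while the STAT2 to STAT3 ratio of UE7T-9 SHC4 lies between Cont replicate 1 and the other controls.

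STAT2, the partner of interferon receptors, had normalized counts of 5763, 10396 and 11283 in the Cont libraries, a 1.96-fold range. It had 7097, 9271 and 9654 in the SHC4 libraries, all between Cont replicate 1 and the other controls. The log2 fold change from limma was -0.03 (standard error 0.26, adjusted p = 0.971). Without Cont replicate 1 it was -0.33 (standard error 0.18, adjusted p = 0.305), and it turned above 0 without Cont replicate 2 (0.09), Cont replicate 3 (0.15) or SHC4 replicate 1 (0.11). The 36 listed interferon-stimulated genes, which interferons switch on through complexes that hold STAT2, had a mean log2 level of 9.15, 11.47 and 11.93 in the Cont libraries and 9.25, 9.68 and 10.01 in the SHC4 libraries. Ordered from low to high, the 6 libraries stood in the same order for this mean as for STAT2, which is a description of 6 libraries. All 36 had a log2 fold change below 0 (median -1.24 against 0.00 over all genes), and limma passed none. DESeq2 passed MX2 and EPSTI1 as lower, where 2.08% of all genes passed as lower. In limma without Cont replicate 1, the adjusted p of MX2 was 0.000652 and that of EPSTI1 0.00168. The smallest limma p was that of UBE2L6, an enzyme of ISG15 conjugation (log2 fold change -0.61, adjusted p = 0.225), and the highest mean that of IFI6, a mitochondrial protein (-1.49, adjusted p = 0.500), and without Cont replicate 1 their adjusted p was 0.00859 and 0.00759. Without Cont replicate 1, 33 of the 36 fell at an adjusted p below 0.05 in limma, where 2.69% of all genes did so lower and 2.99% higher.

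**Figure D3:**
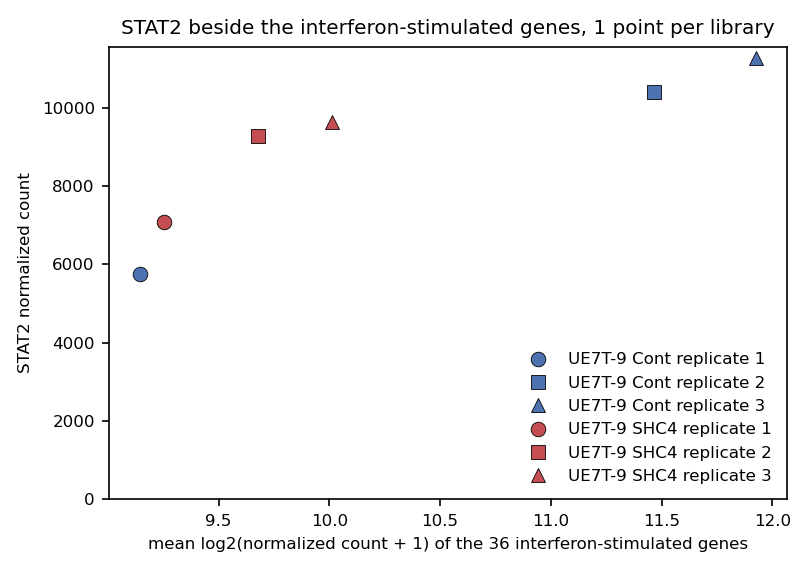
Normalized count of STAT2 (vertical axis from 0) against the mean of log2(normalized count + 1) over the 36 interferon-stimulated genes (horizontal axis, log2 scale), 1 point per library. The lowest point in both measures is Cont replicate 1, followed by SHC4 replicates 1, 2 and 3, and Cont replicates 2 and 3 are highest in both.

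STAT4, the factor of IL-12 signalling, had the lowest mean normalized count of the 9 genes over the 6 libraries, with normalized counts of 151, 337 and 275 in the Cont libraries and 218, 264 and 340 in the SHC4 libraries. Cont replicate 1 was the lowest library, as for STAT2, and the groups overlapped. STAT2 stood at rank 17 of 12678 genes in likeness of its profile to STAT4, with a largest deviation of 0.27 on the log2 scale. In the other direction, STAT4 stood at rank 153 in likeness of its profile to STAT2. The log2 fold change from limma was 0.16 (standard error 0.29, adjusted p = 0.845), with a 95% interval from -0.50 to 0.82, and it turned to -0.18 without Cont replicate 1. STAT4 shares 109 exon bases with AC067945.3 on the opposite strand, a gene with a mean normalized count of 2.62.

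JAK1, the kinase shared by interferon, IL-6 and IL-4 receptors, had normalized counts of 6088, 5251 and 4651 in the Cont libraries and 5845, 6116 and 6084 in the SHC4 libraries. The SHC4 libraries were alike, and Cont replicate 1 lay within their range. The log2 fold change from limma was 0.18 (standard error 0.14, adjusted p = 0.589). It was 0.28 without Cont replicate 1 (adjusted p = 0.249) and 0.09 without Cont replicate 3 (adjusted p = 0.872). JAK2 had 1126, 699 and 726 in the Cont libraries and 961, 872 and 927 in the SHC4 libraries. Here Cont replicate 1 was the highest library and the other controls were the lowest, so that the log2 fold change of 0.15 ± 0.18 (SE, adjusted p = 0.762) became 0.37 (standard error 0.12, adjusted p = 0.117) without it. TYK2, which pairs with JAK1 on interferon receptors, had 2140, 2090 and 2036 in the Cont libraries and 2295, 2200 and 1970 in the SHC4 libraries. Its log2 fold change was 0.04 ± 0.12 (SE, adjusted p = 0.900), with a 95% interval from -0.22 to 0.30, and the groups overlapped. For TYK2, leaving out Cont replicate 1 gave 0.06 (adjusted p = 0.825 from limma). Neither the JAK2 to JAK1 ratio (0.158 ± 0.0259 against 0.153 ± 0.0109) nor the TYK2 to JAK1 ratio (0.396 ± 0.0432 against 0.359 ± 0.0344) separated the groups (SD, n = 3 each, exact permutation p = 0.9 and 0.4).

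**Figure D4:**
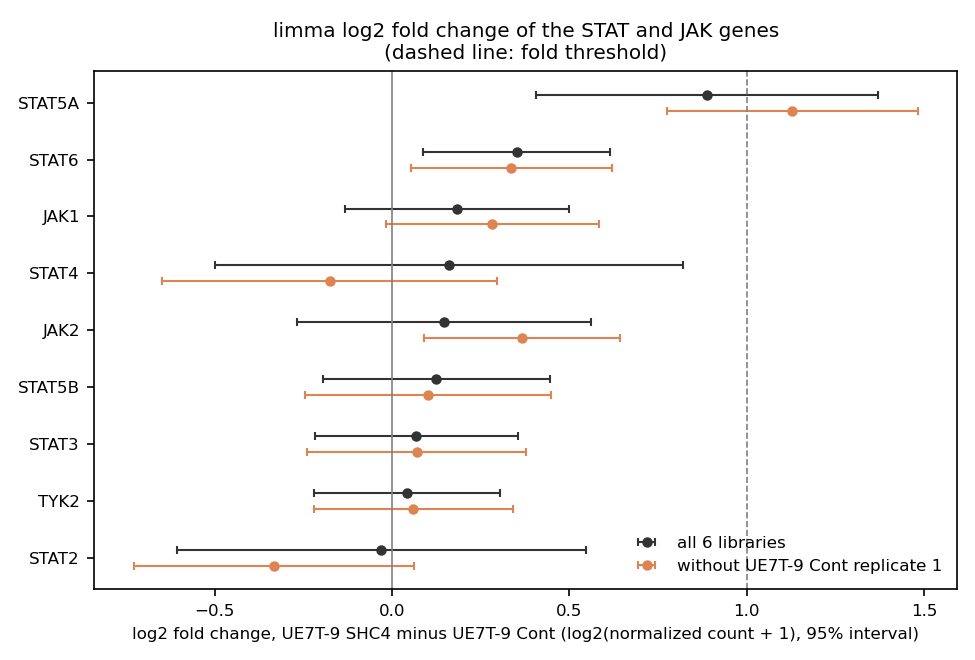
limma log2 fold change (UE7T-9 SHC4 minus UE7T-9 Cont, on log2(normalized count + 1)) of the 9 genes with 95% intervals, for all 6 libraries (black) and without Cont replicate 1 (orange), with a solid line at 0 and a dashed line at the fold threshold of 1. STAT5A moves from 0.89 to 1.13 and past the dashed line, STAT6 stays at 0.35 and 0.34, and STAT4 and STAT2 move to the left.

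Levels of different genes were compared per kilobase of merged exons. In UE7T-9 Cont the order of mean normalized counts per kilobase was STAT2 (1497 ± 485), JAK1 (844 ± 114), STAT3 (551 ± 10.5), STAT6 (483 ± 14.5), TYK2 (308 ± 7.63), STAT5B (148 ± 15.0), JAK2 (138 ± 38.7), STAT4 (53.2 ± 19.8) and STAT5A (47.9 ± 14.9), each with its SD over 3 libraries. The ranges of STAT2 and JAK1, of STAT5B and JAK2, and of STAT4 and STAT5A overlapped, so these neighbours did not differ beyond their spread, and the other neighbours did not overlap. In UE7T-9 SHC4, STAT6 (616 ± 30.7) stood before STAT3 (579 ± 51.2), and STAT5A (86.5 ± 10.5) stood before STAT4 (57.3 ± 12.9). STAT6 and STAT3 overlapped in the SHC4 libraries although STAT6 was higher in all 3 libraries, and the range of STAT5A lay above that of STAT4. Over all 6 libraries, the level per kilobase of STAT2 was higher than that of 97.6% of the genes tested, and the level of STAT5A than that of 60.7%. STAT5A made up 2.95%, 1.33% and 1.23% of the summed per-kilobase level of the 6 STAT genes in the Cont libraries and 3.01%, 3.12% and 2.77% in the SHC4 libraries. The groups overlapped through Cont replicate 1 (difference of 1.13 percentage points, exact permutation p = 0.2), and without it the difference was 1.68 percentage points with no overlap.

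In the genome, STAT5B, STAT5A and STAT3 lie side by side on chromosome 17 (GRCh38, GENCODE 29). STAT5B runs from 42199168 to 42276707 on the minus strand, STAT5A from 42287547 to 42311943 on the plus strand and STAT3 from 42313324 to 42388568 on the minus strand. STAT5B and STAT5A start 10839 bases apart and point away from each other, and the ends of STAT5A and STAT3 are 1380 bases apart. Of the 4 other genes tested within 100 kb of STAT5A, none passed in limma or DESeq2. The log2 fold changes were 0.53 for GHDC (adjusted p = 0.216 from limma, all SHC4 libraries above all controls), 0.13 for STAT5B, 0.07 for STAT3 and 0.33 for CAVIN1. STAT2 and STAT6 are both on chromosome 12, 735252 bases apart.

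The genes whose centred log2 profile over the 6 libraries was nearest to that of STAT5A, among 12678 genes with a mean of at least 50, were NFIX, ASAP3, C5, PCSK4 and NAALADL2, with a largest deviation of 0.13, 0.13, 0.17, 0.18 and 0.19 on the log2 scale. NFIX, a transcription factor of the nuclear factor I family, had 8894, 5094 and 4423 in the Cont libraries and 10249, 11837 and 10125 in the SHC4 libraries. ASAP3, an activator of ARF GTPase hydrolysis, had 635, 414 and 340 in the Cont libraries and 749, 898 and 869 in the SHC4 libraries. In all 5, Cont replicate 1 lay above the other controls and below every SHC4 library. For C5 it lay only just below, with 423 against 426 in SHC4 replicate 1. They were chosen for that likeness, so their fold changes are a description only. STAT5B, by contrast, deviated by up to 0.81 from STAT5A and stood at rank 6476, while the nearest profile to STAT5B within the 9 genes was that of STAT3, with a largest deviation of 0.17.

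The rest of the pathway was read from 9 lists of ligands, receptors, kinases, inhibitors, partners, target genes and interferon-stimulated genes, with 164 of 199 listed genes tested. With the fold threshold, none of these genes was called by limma or edgeR, where limma called 0.0521% of all genes higher and 0.00868% lower. limma with the replicate number as a block called 2. DESeq2 called 9, 4 higher and 5 lower, where 1.05% of the genes it tested were called higher and 1.15% lower. When Cont replicate 1 was left out, limma called 46, of which 32 were interferon-stimulated genes, all lower, and the other lists gave 6 higher and 8 lower, where 1.59% of all genes were called higher and 1.47% lower. With any other single library left out, limma called 0 or 1 of the list genes. Of the 21 ligands tested, none passed in limma, and the median was -0.57. DESeq2 gave 14 of them an adjusted p and passed 1 as lower, where 2.08% of all genes passed as lower. EBI3, a subunit of the IL-27 and IL-35 cytokines, fell in DESeq2 (log2 fold change -2.06, adjusted p = 0.000459) with 100, 112 and 280 in the Cont libraries and 51.0, 30.8 and 36.1 in the SHC4 libraries, and limma gave it an adjusted p of 0.123, or 0.0163 without Cont replicate 1. LIF, the ligand with the highest mean, had 1155, 3844 and 2477 in the Cont libraries and 1112, 1187 and 1980 in the SHC4 libraries (log2 fold change -0.69, adjusted p = 0.455 from limma). Cont replicate 1 lay with the SHC4 libraries, and without it LIF fell by 1.16 on the log2 scale (adjusted p = 0.0351 from limma and 0.0012 from DESeq2).

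Of the 33 receptors tested, none passed in limma, while the median of the list was -0.06. Of the 27 receptors with an adjusted p in DESeq2, LEPR and IL20RA passed as higher and LIFR and IL7R as lower, where 2.06% and 2.08% of all genes did so. LEPR, the leptin receptor that uses JAK2 and STAT3 and also one of the mesenchymal stem cell markers, had 862, 658 and 398 in the Cont libraries and 1493, 1132 and 1699 in the SHC4 libraries (log2 fold change 1.17, adjusted p = 0.00344 from DESeq2, and 0.137 from limma). LIFR, the receptor chain for LIF, had 1367, 1363 and 1316 in the Cont libraries and 896, 858 and 836 in the SHC4 libraries (log2 fold change -0.64, adjusted p = 0.000245 from DESeq2, and 0.0887 from limma), with both groups narrow and apart. limma without Cont replicate 1 passed LEPR (adjusted p = 0.00934), LIFR (0.0175) and IL7R (0.0360) and did not pass IL20RA (0.0846). IL7R, the IL-7 receptor chain, overlapped between the groups, with 597, 819 and 1659 in the Cont libraries and 605, 219 and 235 in the SHC4 libraries (adjusted p = 0.0179 from DESeq2, and 0.0682 from DESeq2 without Cont replicate 1). IL20RA, a chain of the IL-20 receptor, had 77.0, 81.2 and 73.8 in the Cont libraries and 110, 169 and 140 in the SHC4 libraries (adjusted p = 0.0430 from DESeq2). IL6ST, the shared gp130 chain and the most abundant receptor of the list in normalized counts, had 9973, 8141 and 8013 in the Cont libraries and 9956, 10062 and 11894 in the SHC4 libraries (adjusted p = 0.436 from limma). GHR, PRLR and EPOR, some of the receptors known to use STAT5, were picked after their values were seen. GHR had a log2 fold change of -0.25 (adjusted p = 0.536), PRLR of -0.33 (adjusted p = 0.805) and EPOR of 0.04 (adjusted p = 0.933), all from limma. CRLF2, another receptor of the list, was lower in every SHC4 library than in every control (log2 fold change -1.49, adjusted p = 0.261 from limma). Without Cont replicate 1, its adjusted p from limma was 0.0365. Receptors that use STAT5 were not tested as a set.

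Among 15 other kinases that phosphorylate STATs, 11 had a log2 fold change above 0 (median 0.12), against 49.7% of all genes tested. DESeq2 gave 14 of them an adjusted p and passed 3, all higher, where 2.06% of all genes passed as higher. limma passed none (3 higher at an unadjusted p below 0.05, where 7.47% of all genes were higher). PDGFRB, the PDGF receptor beta and also one of the mesenchymal stem cell markers, had 4122, 1487 and 1678 in the Cont libraries and 6634, 5281 and 5178 in the SHC4 libraries (log2 fold change 1.23, adjusted p = 0.0171 from DESeq2). FES, a cytoplasmic tyrosine kinase, had 509, 464 and 513 in the Cont libraries and 715, 703 and 730 in the SHC4 libraries (log2 fold change 0.53, adjusted p = 0.0142). IGF1R, the IGF-1 receptor, had 1577, 1476 and 1214 in the Cont libraries and 1876, 2181 and 2075 in the SHC4 libraries (log2 fold change 0.52, adjusted p = 0.0426). Their adjusted p in limma was 0.162, 0.145 and 0.180, and without Cont replicate 1 it was 0.000698, 0.0383 and 0.0356. FGFR1, the kinase of the list with the highest mean, had a log2 fold change of 0.27 (adjusted p = 0.370 from limma) with all SHC4 libraries above all controls. Of the 19 inhibitors, 17 had an adjusted p in DESeq2, where 2.06% of all genes passed as higher and 2.08% as lower. DESeq2 passed PDLIM2, a ubiquitin ligase for STAT proteins, as higher (log2 fold change 1.26, adjusted p = 0.0194) and SH2B3, an adaptor that restrains JAK2, as lower (log2 fold change -0.71, adjusted p = 0.0430). limma gave them an adjusted p of 0.174 and 0.195, and of 0.00326 and 0.0236 without Cont replicate 1. The 17 partners and coactivators held none that passed in limma or DESeq2, and NMI, which binds STAT proteins, had the smallest limma p (log2 fold change -0.61, adjusted p = 0.215). NMI fell without Cont replicate 1, by 0.81 on the log2 scale (adjusted p = 0.0144 from limma and 0.000283 from DESeq2). SHC1, a relative of SHC4 and the partner with the highest mean, had 8752, 8221 and 7125 in the Cont libraries and 8703, 8297 and 8079 in the SHC4 libraries (log2 fold change 0.06, adjusted p = 0.877 from limma).

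Of 11 tested STAT5 targets, 10 had a log2 fold change above 0 (median 0.31), against 49.7% of all genes tested. With all 6 libraries, none passed in limma, DESeq2 or edgeR, none had an unadjusted limma p below 0.05 and none separated the groups. The target lists share genes, as SOCS3, PIM1 and CCND1 are also on the STAT3 list, and CISH and SOCS1 are also on the STAT6 list. CISH, a feedback inhibitor switched on by STAT5, had 62.4, 38.8 and 15.7 in the Cont libraries and 36.9, 28.3 and 59.4 in the SHC4 libraries (adjusted p = 0.877 from limma). SOCS2, another feedback inhibitor, had 370, 627 and 245 in the Cont libraries and 447, 494 and 694 in the SHC4 libraries (adjusted p = 0.520). PIM1, a survival kinase, had 1585, 1067 and 613 in the Cont libraries and 1527, 1282 and 1676 in the SHC4 libraries (adjusted p = 0.425). PIM1 without Cont replicate 1 had a log2 fold change of 0.88 in limma (adjusted p = 0.0522) and passed in DESeq2 (adjusted p = 0.0114). Of 15 STAT3 targets, 11 were above 0 (median 0.29) and DESeq2 passed 1 as higher, where 2.06% of all genes passed as higher. That gene was LBP, a lipopolysaccharide binding protein of the acute phase, with 7.80, 2.36 and 0.984 in the Cont libraries and 17.6, 117 and 111 in the SHC4 libraries (log2 fold change 4.44, adjusted p = 1.77e-05 from DESeq2, against 0.116 from limma and 0.0125 from limma without Cont replicate 1). Of 10 STAT6 targets, 7 were below 0 (median -0.57, and -0.28 without Cont replicate 1), where 49.7% of all genes tested were above 0. Among those below 0, ALOX15, SERPINB4 and CDH26 had mean normalized counts of 3.83, 2.71 and 4.33, near the value of 3 reads. DESeq2 gave 7 of the 10 an adjusted p and passed 1 as lower, where 2.08% of all genes passed as lower. That gene was CCL26, an eosinophil chemokine, with 67.3, 128 and 124 in the Cont libraries and 26.4, 31.6 and 31.4 in the SHC4 libraries (adjusted p = 0.00013 from DESeq2, against 0.0961 from limma and 0.00519 from limma without Cont replicate 1). The most abundant target of each list in normalized counts, CCND1 for STAT5 (log2 fold change 0.18), HIF1A for STAT3 (0.01) and POSTN for STAT6 (-0.33), overlapped between the groups, with limma adjusted p of 0.752, 0.992 and 0.725. Without Cont replicate 1, the log2 fold change of CCND1 turned to -0.06 and that of POSTN to 0.08, and that of HIF1A was 0.12.

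**Figure D5:**
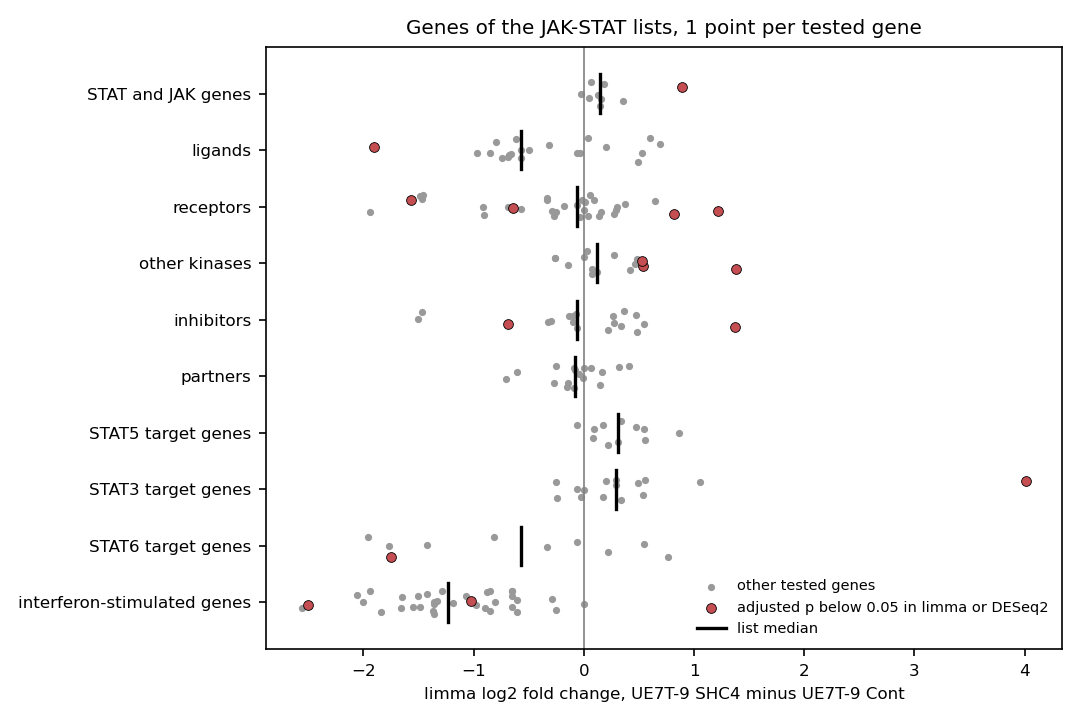
limma log2 fold change (UE7T-9 SHC4 minus UE7T-9 Cont) of each tested gene in the lists of STAT and JAK genes, ligands, receptors, other kinases, inhibitors, partners, target genes and interferon-stimulated genes, with genes at an adjusted p below 0.05 in limma or DESeq2 in red and the list median as a black bar. The interferon-stimulated genes all lie below 0 with a median of -1.24, while the STAT and JAK genes lie near 0 (median 0.15) except STAT5A at 0.89.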

How the data were processed

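Groups and replicate numbers were read from the sample labels, with 3 samples each of UE7T-9 Cont and UE7T-9 SHC4. Their RNA was prepared with an RNeasy kit and a NEBNext Ultra RNA kit and sequenced on a NovaSeq system by Novogene. The deposited signal is a normalized count, that is, the authors divided the reads of each gene by a size factor of the library. The submitters' processing notes name HISAT2 2.0.5, featureCounts 1.5.0-p3 and DESeq2, and the genome build, annotation and strand setting are not given in the sources used here. Multiplying the signal by the size factor gave whole reads for 100% of values (tolerance 0.01 reads), with depths of 18144993 to 27721397 reads.

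Symbols were found for 27968 of 28181 identifiers (99.2%), and gene positions and exon lengths are from GENCODE 29. limma 3.58.1 (lmFit, eBayes with trend) in R 4.3.3 was run on log2(value + 1) for the 23040 genes whose mean reached 1, and p-values were adjusted over all of them by the Benjamini-Hochberg method. Called genes had an adjusted p below 0.05 together with a log2 change larger than 1 in size, and folds of genes with few reads are understated on this scale. DESeq2 1.42.0 and edgeR 4.0.16 (quasi-likelihood) on the recovered reads, other scalings, filters and pseudocounts, a replicate block and leaving out each library were alternatives, and DESeq2 without each library was added after the data were seen. Ratios and shares were compared by exact permutation tests over libraries. The plain limma, DESeq2 and edgeR fits were tested on simulated counts. The other scalings, filters and pseudocounts, the replicate block and the fits with a library left out were not. The 9 genes were taken from the STAT and JAK families, and the members and the pathway lists were chosen with earlier results of these data known. Named beyond them were the genes of each list that passed in limma or DESeq2, that had the smallest p or the highest mean, the neighbours of STAT5A and the 5 genes nearest to its profile. The receptors GHR, PRLR, EPOR and CRLF2 and the targets CISH and SOCS2 were named after their values were seen. An item of the lists is not reported here and is left out of their counts and medians.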

Additional observations from a re-analysis of the deposited data

How the results depend on the processing

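Of 180 values of the 9 genes under alternatives, 161 kept their direction and their side of an adjusted p of 0.05. Another 4 (all of STAT5A) passed below it, whatever the size of the change, and 15 changed sign. Those that passed were STAT5A in DESeq2 (0.85), in limma without UE7T-9 Cont replicate 1, and in DESeq2 without UE7T-9 Cont replicate 1 or without UE7T-9 SHC4 replicate 1. Only the 2 fits without UE7T-9 Cont replicate 1 also exceeded the fold threshold of 1 and gave a call. With each library left out, the log2 fold change of STAT5A lay between 0.75 and 1.13 in limma and between 0.71 and 1.14 in DESeq2 (0.94 without UE7T-9 SHC4 replicate 1). With each library left out, limma gave -0.33 to 0.15 for STAT2 and -0.18 to 0.40 for STAT4. The number of the 9 genes called lay between 0 and 1. The sign of STAT2 turned without UE7T-9 Cont replicate 2 (0.09, DESeq2 0.023), Cont replicate 3 (0.15, DESeq2 0.10) or SHC4 replicate 1 (0.11, DESeq2 0.048). That of STAT4 turned without UE7T-9 Cont replicate 1 (-0.18, DESeq2 -0.16) or SHC4 replicate 3 (-0.0079, DESeq2 -0.074). JAK2 turned in DESeq2 without UE7T-9 Cont replicate 2 (-0.011), TYK2 without UE7T-9 SHC4 replicate 1 (-0.0042, DESeq2 -0.0030) and with library size scaling (-0.061), and STAT3 with library size scaling (-0.035). The number of pathway list genes called was 0 in limma, 9 in DESeq2 and 2 with the replicate block. With each library left out it lay between 0 and 46 in limma and between 3 and 45 in DESeq2, with the highest counts of both without UE7T-9 Cont replicate 1. Without UE7T-9 SHC4 replicate 1 limma called 1 and DESeq2 7, and DESeq2 called 4 without UE7T-9 Cont replicate 2, SHC4 replicate 2 or SHC4 replicate 3. The cause of these changes was not tested. The replicate block left the STAT5A log2 fold change at 0.89 (adjusted p = 0.116 from limma) and called none of the 9 genes. Deviations from the group means correlated between samples of the same number with r of 0.15, 0.01 and -0.01 across the genes tested and of 0.41, 0.15 and 0.15 across genes with a mean of at least 50, and not every sample correlated best with its own number. Whether the numbers pair the samples is therefore not settled. With 3 libraries per group the exact tests cannot reach below 0.1, and the STAT5A and STAT4 values rest on 155 reads or more per library.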
